A study of Mus musculus with 11 samples.

Results

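The GIMAP genes encode GTPases of immunity-associated proteins, a family of guanine-nucleotide-binding proteins found mainly in lymphocytes. The members were taken by name, 8 of the 25562 genes in the deposited expression table. Gimap1, Gimap3, Gimap4, Gimap5, Gimap6, Gimap7, Gimap8 and Gimap9 were all present, and all 8 passed the filter on low values. The family was chosen from its levels in these same libraries, so its levels and differences are given as a description, without p-values of their own. No cut-off on the values decided which members entered.

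RNA was measured in 11 libraries of CD8+ T cells isolated from the spleens of C57BL/6 mice. The cells of every group were kept for 22 h before activation and then activated for 24 h with anti-CD3 at 1 µg/mL and anti-CD28 at 0.5 µg/mL. The AOAH group (4 libraries) received 10 µg/mL His-tagged recombinant human acyloxyacyl hydrolase, a lipase best known for clipping acyl chains off bacterial endotoxin, plus ethanol. The PC group (3 libraries) received 60 µM of the phosphatidylcholine PC16:0-20:4, and the vehicle group (4 libraries) received ethanol; both also received 10% glycerol in PBS. The labels name no glycerol for the AOAH libraries, so the enzyme and its buffer cannot be told apart. The labels differ on whether AOAH was given before or during activation, on whether the antibodies were plate-bound or on beads, and on added interleukin-2. Age and sex of the mice are not given. Nothing in the labels says that libraries came from separate mice or cultures, so p-values here measure only the spread between libraries, which may be technical.

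GIMAP proteins share a GTP-binding domain of the AIG1 type, and several carry a membrane anchor that places them on intracellular membranes. Their genes lie side by side in 1 cluster, and resting T cells hold high amounts of their transcripts. The family is known above all for the survival of peripheral lymphocytes: rodents without working Gimap5 lose T cells. In the RefSeq order the cluster runs Gimap8, Gimap9, Gimap4, Gimap6, Gimap7, Gimap1, Gimap5 and Gimap3.

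The 250 bases before the annotated start are shown for 3 members that stand for the range of patterns described further on: Gimap3 differed most between AOAH and vehicle, Gimap4 was the most abundant member, and Gimap7 departed from the others in the PC group. Sequences are from RefSeq on the GRCm38.p6 build, which is not the mm39 build of the deposited values, and capitals mark the motifs searched on both strands. Gimap3 lies on the minus strand with this window at chr6:48770852-48771101, Gimap4 on the plus strand at chr6:48684328-48684577, and Gimap7 on the plus strand at chr6:48718371-48718620. Bases after the start were looked for in the GENCODE M21 transcripts of the same gene. They were found for Gimap3 and Gimap7 but not for Gimap4, so the start used for Gimap4 is less certain.
Gimap3: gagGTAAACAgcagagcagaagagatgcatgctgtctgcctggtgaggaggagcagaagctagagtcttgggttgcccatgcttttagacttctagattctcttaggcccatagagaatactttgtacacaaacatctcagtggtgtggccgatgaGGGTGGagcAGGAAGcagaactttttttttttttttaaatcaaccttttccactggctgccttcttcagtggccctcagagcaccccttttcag
Gimap4: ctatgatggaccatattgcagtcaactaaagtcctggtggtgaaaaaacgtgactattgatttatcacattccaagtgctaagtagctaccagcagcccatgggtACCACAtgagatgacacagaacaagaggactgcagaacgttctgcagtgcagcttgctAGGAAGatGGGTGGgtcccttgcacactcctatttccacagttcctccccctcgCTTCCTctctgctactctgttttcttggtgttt
Gimap7: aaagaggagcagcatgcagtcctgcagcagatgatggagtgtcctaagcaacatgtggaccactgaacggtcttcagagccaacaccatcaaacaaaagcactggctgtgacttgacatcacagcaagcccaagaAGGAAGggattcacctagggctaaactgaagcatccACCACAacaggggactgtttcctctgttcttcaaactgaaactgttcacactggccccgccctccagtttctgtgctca
The 8 genes have 9 such windows, since Gimap8 has 2 annotated starts. The ETS core AGGAAG stood in 7 of the 9, from 7 genes, and 29.5% of all 32851 promoter windows of that length held it. The KLF core CCACCC stood in 5 of the 9 (28.1% of all windows), the RUNX forms TGTGGT or TGCGGT in 4 (18.6%), and the FOXO form TGTTTAC in that of Gimap3 alone (3.17%). The TATA form TATAAA stood in that of Gimap6 alone (12.4% of all windows). These are letter matches in 1 window per start, not measured binding sites.

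All levels are TPM, the share of all transcripts that a gene takes after division by transcript length, estimated with RSEM. AOAH libraries held 11423 to 11497 genes of at least 1 TPM, vehicle libraries 11569 to 11633 and PC libraries 11641 to 11739, an order whose part in the GIMAP levels was not tested. Mitochondrial transcripts took 3.39% to 3.62%, and log2 values of libraries within a group correlated across genes at 0.992 to 0.994. No pair of libraries was identical. Cd8a was between 331 and 446 TPM in every library, and Cd4 had a mean under 0.5 TPM. Among markers of other cells, the 7 B cell genes summed in vehicle to 8.08 to 10.3 TPM, with AOAH at 7.15 to 9.44 and PC at 6.35 to 7.77, and Ms4a1, Pax5 and Ebf1 were each under 0.5 TPM. The 4 CD4 T cell genes summed to 3.69 to 6.88 TPM (AOAH), 6.33 to 9.03 (PC) and 3.87 to 6.04 (vehicle). The 6 myeloid genes that the table holds, of 8 listed, summed to 4.26 to 4.84, 5.86 to 7.3 and 4.77 to 8.24 TPM in that order, with Csf1r, Itgam, Adgre1 and C1qa each under 0.5. The 3 NK cell genes summed to at most 2.41 TPM, the 3 platelet genes to 2.94 and the 3 erythroid genes in the table, of 5 listed, to 1.32. The 4 dendritic cell genes summed to at most 0.2 TPM and the 4 endothelial genes to 0.06, while no gene of these lists that the table holds was at 0 in all libraries.

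The 8 GIMAP genes together took 986 ± 34.1 TPM in AOAH (SD, n = 4), 1358 ± 15.7 in PC (n = 3) and 1290.3 ± 18.5 in vehicle (n = 4). The AOAH libraries held 1011, 951, 1019.9 and 963 TPM, the PC libraries 1363, 1371 and 1341, and the vehicle libraries 1288, 1317, 1274 and 1284. The groups did not overlap: every AOAH library lay below every vehicle library, and every PC library lay above them. The AOAH mean was 76.4% of the vehicle mean, and the PC mean was 105% of the mean of vehicle 1 to 3. In bulk RNA, fewer cells of a type and less RNA per cell cannot be told apart.

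**Figure D1:**
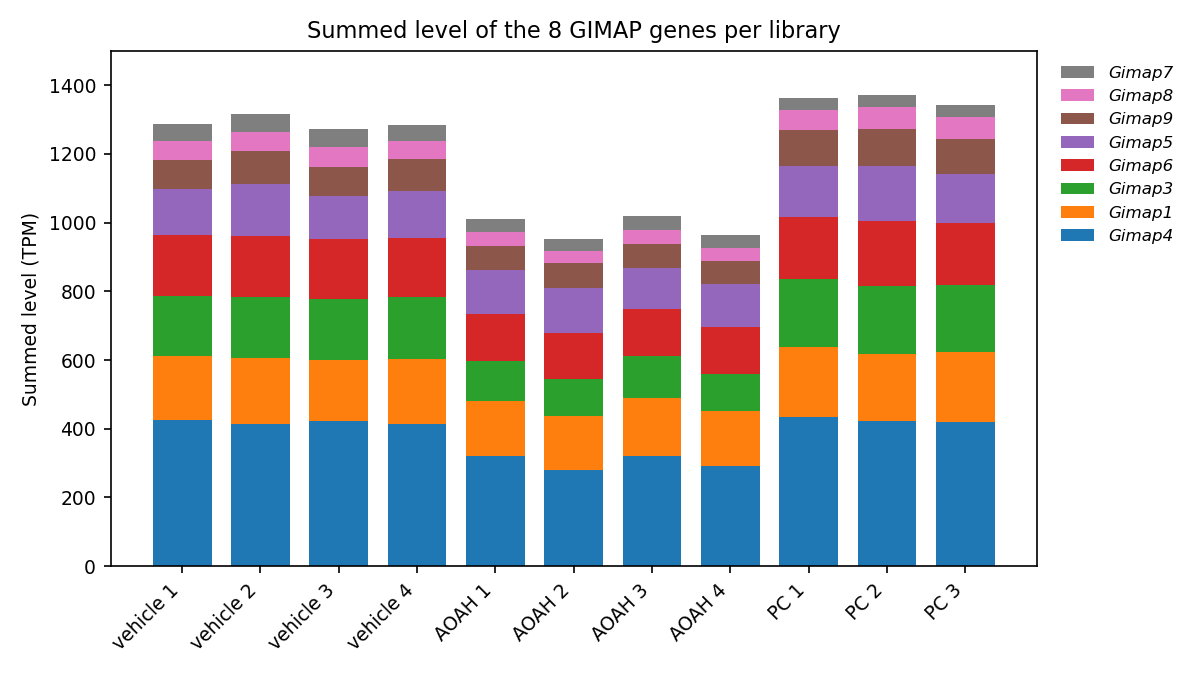
Stacked bars give the level in TPM of each of the 8 GIMAP genes in each of the 11 libraries, from the most abundant member in vehicle at the bottom to the least abundant at the top. The 4 AOAH bars end between 951 and 1019.9 TPM, below the 4 vehicle bars (1274 to 1317) and the 3 PC bars (1341 to 1371).

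Markers of the CD8 T cell itself stood in the same order. The 7 genes (Cd8a, Cd8b1, Cd3d, Cd3e, Cd3g, Thy1 and Lck) summed to 2456 to 2482 TPM in vehicle, 2185 to 2233 in AOAH and 2700.4 to 2795 in PC. The AOAH mean of that sum was 89.9% of vehicle, and the PC mean was 112% of vehicle 1 to 3. Set against this sum, the GIMAP sum came to 44.5% ± 1.11 in AOAH (SD, n = 4), 52.4% ± 0.873 in vehicle (n = 4) and 49.2% ± 1.24 in PC (n = 3). On that scale AOAH (43.5% to 45.7%) still lay below vehicle (51.7% to 53.6%), but PC (48.0% to 50.5%) also lay below vehicle, so the order of PC and vehicle turned. Whether the CD8 marker level has a part in the GIMAP differences was not tested.

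Each comparison below was fitted with limma over all genes, as a difference in log2(TPM + 1), which understates the change of low genes. A gene counts as past the threshold where its Benjamini-Hochberg adjusted p over all tested genes is under 0.05. Between AOAH and vehicle, 12.1% of 11561 tested genes were past it as lower in AOAH and 13.1% as higher. Of the GIMAP genes, 7 of 8 were past it as lower and none as higher, and since the family was selected on such values nothing is read from that count. The median difference was -0.39 over the members and 0.01 over all tested genes. Between PC and vehicle 1 to 3, 8.26% of 11630 tested genes were past it as higher in PC and 11.2% as lower, and 3 GIMAP genes were higher and 1 lower. The median there was 0.13 over the members and -0.01 over all genes. Vehicle 4 has no PC library of its batch and was left out of that comparison. These comparisons share vehicle 1 to 3. AOAH against PC shares no control library: 21.5% of 11596 tested genes were lower in AOAH and 24.3% higher, and 7 of 8 GIMAP genes were lower. Its median was -0.46 over the members and 0.00 over all genes.

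Gimap3, Gimap5 and Gimap1 are among the members of the family tied to intracellular membranes and to the survival of mature lymphocytes. Gimap3 is the closest relative of Gimap5 and has been linked in mice to the segregation of mitochondrial DNA in blood cells. Its level was 118.5, 108, 121 and 107 TPM in the AOAH libraries, 197, 198 and 192 in PC, and 173, 178, 178 and 179 in vehicle. The 3 groups were fully separate, with AOAH at 64.3% of vehicle. Of all 8 members it had the most negative log2 difference between AOAH and vehicle, -0.63 ± 0.04 (SE), and PC lay 0.15 ± 0.03 above vehicle 1 to 3. AOAH against PC gave -0.78 ± 0.05.

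Gimap5, which sits on lysosomal membranes and whose loss leaves rats and mice short of T cells, was the member with the most overlap between groups. It stood at 126, 132, 119 and 126 TPM in AOAH, 149, 160.3 and 143 in PC, and 134, 152, 125 and 137 in vehicle. AOAH overlapped vehicle, and so did PC, while AOAH and PC did not overlap. The log2 difference was -0.12 ± 0.06 between AOAH and vehicle and 0.14 ± 0.08 between PC and vehicle 1 to 3, neither past the threshold. It was -0.26 ± 0.05 between AOAH and PC. Single libraries weighed on these values: without vehicle 2 they were -0.07 and 0.22, and without vehicle 3 the PC difference was 0.08. With batch as a term in the fit, the difference between AOAH and vehicle passed the threshold.

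Gimap1, needed for the maintenance of mature T and B cells, was the second most abundant member. It stood at 159.9, 156, 168 and 162 TPM in AOAH, 205, 195 and 204 in PC, and 187, 192, 178 and 189 in vehicle. The groups did not overlap. The log2 difference of AOAH from vehicle was -0.21 ± 0.03, from PC -0.32 ± 0.03. PC lay 0.12 ± 0.04 above vehicle 1 to 3, which did not pass the threshold, but passed it when vehicle 4 was added, in 1 fit over all 11 libraries and after quantile normalization.

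Gimap4 and Gimap6 have roles in the death of T cells and in autophagy. Gimap4, which speeds the completion of T cell death after an apoptotic signal, was the most abundant member in every library. It stood at 319.6, 280.4, 322 and 291 TPM in AOAH, 433, 421 and 421 in PC, and 425, 412, 423 and 414 in vehicle. All AOAH libraries lay below all others, and PC overlapped vehicle. The log2 difference was -0.47 ± 0.04 between AOAH and vehicle and -0.49 ± 0.05 between AOAH and PC. PC and vehicle 1 to 3 differed by 0.02 ± 0.02, not past the threshold, and after quantile normalization the sign turned (-0.01).

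Gimap6 binds Gabarapl2, one of the ATG8 proteins that build the autophagosome. Its level was 137, 133, 138 and 135 TPM in AOAH, 181, 189 and 181 in PC, and 179, 178, 174 and 173 in vehicle. AOAH lay far below the other groups, and the lowest PC library was just above the highest vehicle library. The log2 difference of AOAH from vehicle was -0.37 ± 0.02, of PC from vehicle 1 to 3 0.05 ± 0.03, which was not past the threshold, and of AOAH from PC -0.43 ± 0.03.

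Gimap8 is the longest member of the family and carries several GTPase domains. It stood at 41.0, 36.2, 39.8 and 37.2 TPM in AOAH, 60.3, 64.5 and 63.9 in PC, and 56.3, 55.5, 56.6 and 51.6 in vehicle. The groups did not overlap, with AOAH at 70.1% of vehicle. The log2 differences were -0.50 ± 0.05 for AOAH against vehicle, 0.16 ± 0.04 for PC against vehicle 1 to 3 and -0.69 ± 0.05 for AOAH against PC.

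Gimap9, the neighbour of Gimap8 in the cluster, stood at 70.0, 71.2, 71.0 and 67.9 TPM in AOAH, 104, 108 and 101 in PC, and 84.2, 96.0, 85.8 and 93.0 in vehicle. The groups did not overlap, and of the 8 members it had the highest PC level relative to vehicle 1 to 3 (118%). The log2 differences were -0.35 ± 0.05 for AOAH against vehicle, 0.24 ± 0.06 for PC against vehicle 1 to 3 and -0.57 ± 0.03 for AOAH against PC. The PC calls of Gimap8 and Gimap9 were lost in most fits without 1 library: that of Gimap8 without PC 2, PC 3, vehicle 1, vehicle 2 or vehicle 3 and with batch as a term, and that of Gimap9 without PC 1, PC 2, PC 3, vehicle 1 or vehicle 3. Both were also lost without the filter on low values.

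Gimap7, a GTPase that can stimulate GTP hydrolysis by other GIMAP proteins, had a pattern of its own. It stood at 39.1, 33.7, 41.4 and 36.8 TPM in AOAH, 33.7, 35.0 and 34.5 in PC, and 49.7, 53.1, 53.8 and 45.7 in vehicle. Both treated groups lay below every vehicle library, and they overlapped each other. AOAH was at 74.7% of vehicle and PC at 65.9% of vehicle 1 to 3, the only member whose PC mean was below vehicle. The log2 differences were -0.41 ± 0.07 for AOAH against vehicle and -0.59 ± 0.04 for PC against vehicle 1 to 3. AOAH against PC gave 0.13 ± 0.07, not past the threshold, then 0.18, past it, without AOAH 2 and 0.08 without AOAH 3. Between PC and vehicle, Gimap7 was thus lower where the means of the other 7 were level or higher.

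**Figure D2:**
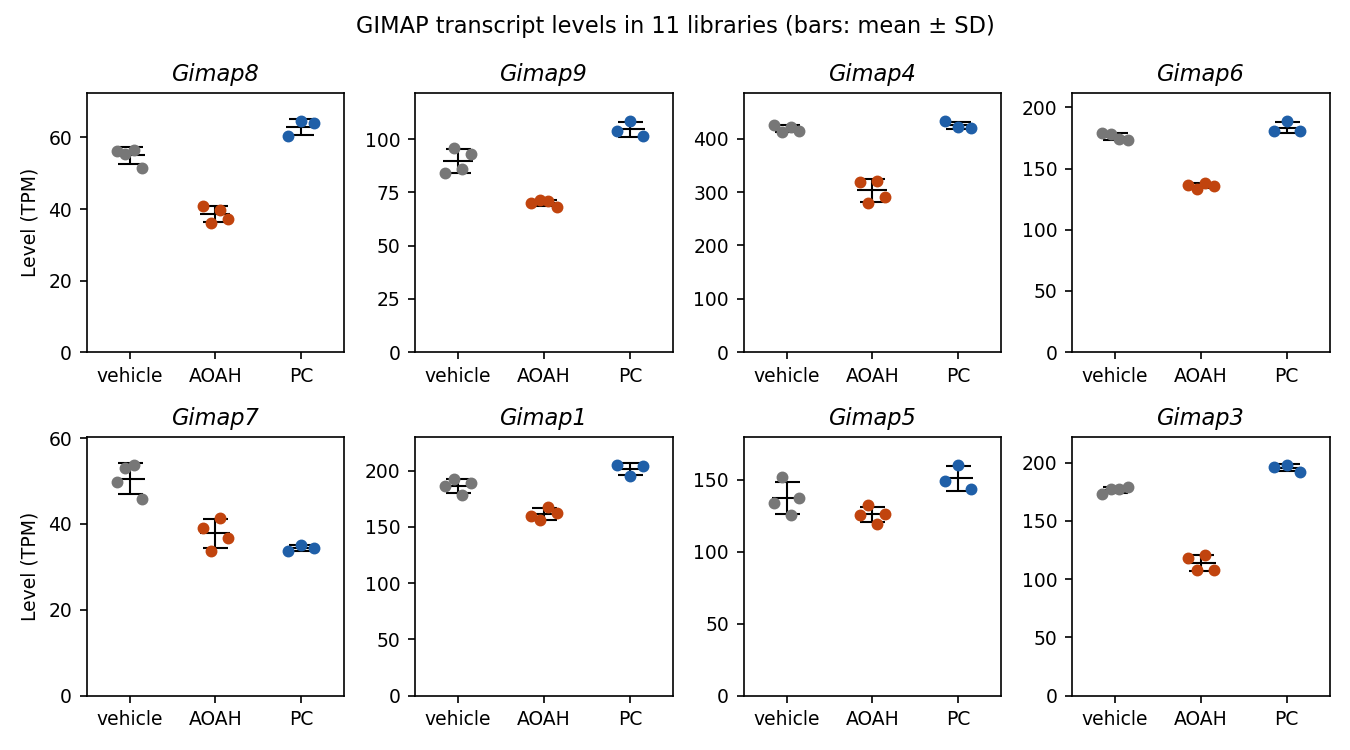
Points give the level in TPM of each GIMAP gene in each library, 1 panel per gene in chromosomal order and with its own vertical axis from 0, with bars for the mean ± SD of vehicle (n = 4), AOAH (n = 4) and PC (n = 3). The AOAH mean is lowest in every panel but that of Gimap7, where PC (33.7 to 35.0 TPM) overlaps AOAH (33.7 to 41.4).

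A read-through gene, Gm28053, spans Gimap7 to Gimap5 in the annotation and shares sequence with 4 members, so reads at this locus could be split among them. Of its 940 stretches of 50 bases, 15.8% occur in Gimap1, 11.2% in Gimap5, 3.40% in Gimap7 and 0.851% in Gimap3. Gm28053 was listed at 18.6, 17.2, 24.4 and 11.3 TPM in AOAH, 15.3, 18.9 and 11.8 in PC, and 14.2, 13.0, 10.9 and 11.4 in vehicle. Added together, Gimap7 and Gm28053 came to 57.7, 51.0, 65.9 and 48.1 TPM in AOAH, 49.1, 53.9 and 46.3 in PC, and 63.9, 66.1, 64.8 and 57.2 in vehicle. On that sum AOAH overlapped vehicle and its log2 difference was -0.18, no longer past the threshold, while PC stayed below vehicle at -0.38. Gimap5 and Gm28053 together came to 136 to 165 TPM in vehicle, 137 to 149.6 in AOAH and 155 to 179 in PC, and the log2 difference of AOAH from vehicle shrank from -0.12 to -0.05. No such sum was made for Gimap1, which shares more of these stretches with Gm28053 than Gimap5 or Gimap7 does. In TPM, the Gimap7 call under AOAH was thus lost once the read-through model was counted with it. In the authors' deposited table for AOAH against vehicle, Gm28053 had a base mean (mean normalized signal) of 19.1 and Gimap7 of 808. The log2 fold change of Gimap7 there was -0.43, with a standard error of 0.0994. Beside Gimap7, the read-through model thus weighed far more in TPM, which divides by transcript length, than by base mean. Of the 50-base stretches of Gimap7, 1.39% occur in Gm28053. How reads were split between the models was not tested, and the sums were tried after the values had been seen.

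Gimap3 and Gimap5 also share sequence: 7.52% of the 50-base stretches of Gimap3 occur in Gimap5, so a small part of their reads could be exchanged. Gimap1os, the antisense neighbour of Gimap1, overlaps 32.4% of Gimap1 on the opposite strand, and the sources used here do not say whether counting used the strand. It was listed at 13.2 to 18.5 TPM in vehicle, 10.8 to 13.1 in AOAH and 12.5 to 13.1 in PC.

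The authors' deposited table of comparisons, made with DESeq2, gave nearly the same sizes. For AOAH against vehicle the authors' deposited table listed log2 fold changes of -0.64 for Gimap3, -0.52 for Gimap8, -0.47 for Gimap4 and -0.12 for Gimap5. For PC against vehicle the authors' deposited table listed -0.59 for Gimap7, 0.25 for Gimap9 and 0.03 for Gimap4. The base mean in the authors' deposited table for the AOAH comparison was 9233 for Gimap4, 808 for Gimap7 and 19.1 for Gm28053, lowest for the read-through model.

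**Figure D3:**
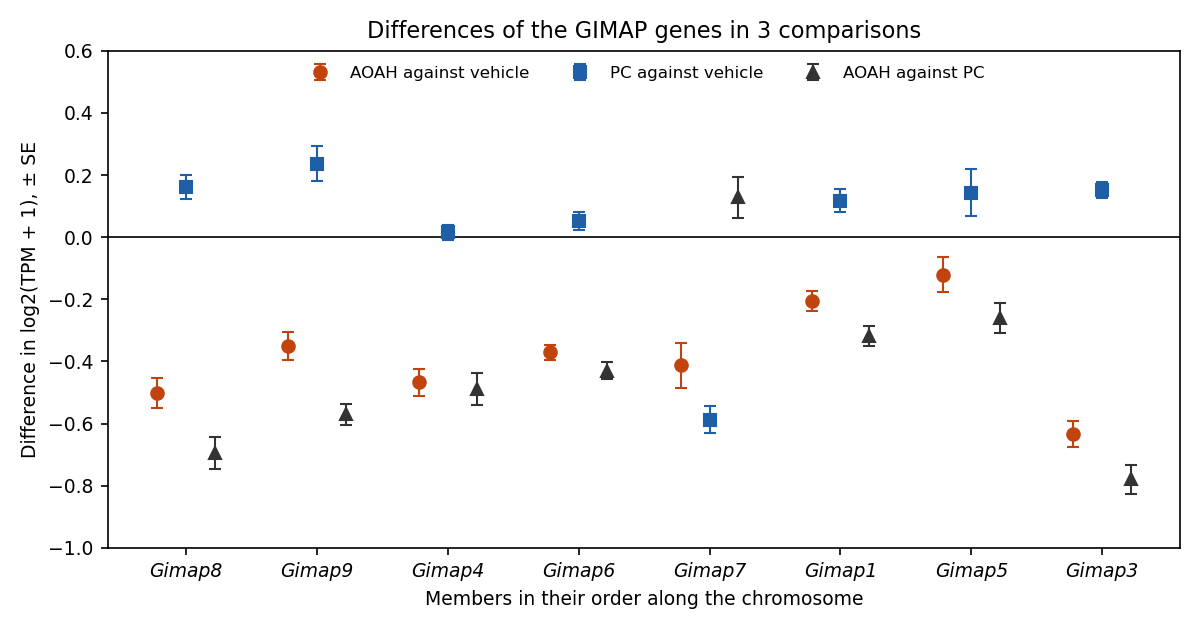
Points give the difference in log2(TPM + 1) of each GIMAP gene, in chromosomal order, with bars of 1 SE, for AOAH against vehicle (n = 4 and 4), PC against vehicle 1 to 3 (n = 3 and 3) and AOAH against PC (n = 4 and 3). Gimap3 reaches -0.63 and -0.78 in the AOAH comparisons, and only Gimap7 is below 0 for PC against vehicle (-0.59).

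The labels number the libraries by batch, and same-batch libraries can be set side by side. In the 4 same-batch pairs of AOAH and vehicle, all 8 members were lower in AOAH in every pair. In the 3 pairs of PC and vehicle, Gimap7 was lower in 3 of 3, Gimap4 higher in 2 of 3, and the other 6 members higher in 3 of 3. In the 3 pairs of AOAH and PC, 7 members were lower in AOAH in every pair, and Gimap7 was higher in 2 and lower in 1. The share of all genes that keep the same direction in every pair was not computed. The family was also chosen from these values, so nothing is read from these counts.

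The make-up of the family differed by group as well. In vehicle the order was Gimap4, Gimap1, Gimap3, Gimap6, Gimap5, Gimap9, Gimap8 and Gimap7, where Gimap3 and Gimap6 differed by less than their SD. In AOAH Gimap3 stood below Gimap6 and Gimap5 and above Gimap9, and Gimap8 and Gimap7 did not differ beyond their SD. In PC it stood level with Gimap1, within their SD. Gimap3 took 11.5% ± 0.328 of the GIMAP sum in AOAH, 13.7% ± 0.286 in vehicle and 14.4% ± 0.0544 in PC (SD). Gimap7 took 3.83% ± 0.214, 3.92% ± 0.280 and 2.53% ± 0.0513 in the same order. The ratio of Gimap7 to Gimap4 was 0.125 in AOAH, 0.121 in vehicle and 0.0810 in PC, so these genes kept their ratio under AOAH and departed from it under PC.

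Over the 11 libraries, each member was correlated with the mean of the other 7 as a description of likeness on the log2 scale. These points share their groups, so the values mainly restate the group order. Pearson's r was 0.992 for Gimap6, 0.987 for Gimap3, 0.979 for Gimap4, 0.962 for Gimap8, 0.924 for Gimap1 and 0.914 for Gimap9. It was lower for Gimap5 (0.676) and for Gimap7 (0.166).

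Among 11588 genes outside the family, the 5 most like the GIMAP mean over the 11 libraries were Il7r (r = 0.996), Gbp8 (0.996), H2-Q4 (0.996), Ifi203 (0.995) and Slc28a2b (0.995). Il7r, the receptor chain through which interleukin-7 sustains resting T cells, had a mean of 18.0 TPM in AOAH, 94.4 in PC and 78.6 in vehicle. H2-Q4, a non-classical MHC class I gene, had 107, 161 and 154 TPM in the same order. The interferon-inducible genes Gbp8 (13.9, 40.8 and 36.4 TPM) and Ifi203 (16.3, 33.6 and 30.4), and the nucleoside transporter Slc28a2b (4.83, 24.1 and 18.4), followed the same order. The 3 most opposite genes were Ddx39a (r = -0.989), an RNA helicase, Marcksl1 (-0.986) and Ldha (-0.981), the glycolytic lactate dehydrogenase. Ldha stood at 2236 TPM in AOAH, 1651 in PC and 1751 in vehicle. These genes were picked for their pattern, so their levels are a description.

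Of the 5 nearest protein-coding genes on each side of the cluster, 4 passed the filter on low values in at least 1 comparison. Lrrc61, with means of 20.9 to 23.6 TPM, and Zfp775, both on the Gimap8 side, passed the threshold in no comparison. Repin1, a zinc-finger gene on that side, was higher in AOAH than in PC by 0.30 (limma, adjusted p = 0.0236). Tmem176b, on the Gimap3 side, stood at 0.883 ± 0.3 TPM in AOAH and 1.84 ± 0.402 in vehicle (SD, n = 4 each). It passed the filter of 1 TPM only through vehicle, so this difference is given with no test.

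Companion genes of the family were taken as 4 lists of 30 genes in all, and every one was tested. Between AOAH and vehicle 10 fell and none rose in AOAH, between PC and vehicle 1 to 3 10 rose and 2 fell in PC, and between AOAH and PC 16 were lower and 2 higher in AOAH. Over all tested genes the shares were 12.1% lower and 13.1% higher, 8.26% higher and 11.2% lower, and 21.5% lower and 24.3% higher, in the same order of comparisons. The list medians were -0.08, 0.08 and -0.18, against 0.01, -0.01 and 0.00 over all genes. With batch as a replicate block, the count for PC against vehicle was 7 in place of 12. All 4 lists were chosen with earlier results of these data known. Most companion genes given with values below were picked for a large AOAH against PC difference. Their counts and p-values are therefore a description and no independent support.

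The ATG8 list holds the autophagosome proteins to which Gabarapl2, the partner of Gimap6, belongs. Of its 5 genes, 2 fell in AOAH against vehicle (12.1% of all tested genes did), 3 rose in PC against vehicle (8.26%), and 4 were lower in AOAH than in PC (21.5%). Gabarap stood at 98.8 ± 2.81 TPM in AOAH (SD, n = 4) and 128 ± 2.66 in PC (n = 3), a difference of -0.37 (limma, adjusted p = 6.24e-05). Map1lc3b differed by -0.46 (limma, adjusted p = 0.00135) and Map1lc3a, at 1.77 ± 0.334 against 4.5 ± 0.129 TPM, by -0.996 (limma, adjusted p = 2.07e-04). Gabarapl2 itself was 36.1 ± 0.797 TPM in AOAH and 37.7 ± 2.01 in vehicle (-0.06, limma, adjusted p = 0.369), and was lower in AOAH than in PC (-0.23, limma, adjusted p = 0.00117).

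The BCL2 list holds the regulators of mitochondrial cell death, whose action GIMAP proteins are reported to touch. Of its 7 genes, 2 fell in AOAH against vehicle, 1 rose and 1 fell in PC against vehicle, and 4 were lower and 1 higher in AOAH than in PC. The shares of all tested genes were 12.1%, then 8.26% and 11.2%, then 21.5% and 24.3%, so the PC against vehicle counts are near the background. Bcl2, which protects resting T cells, was lower in AOAH than in vehicle (24.4 ± 0.947 against 31.0 ± 1.35 TPM, -0.34, limma, adjusted p = 0.00102) and than in PC (-0.19, limma, adjusted p = 0.0286). The death-promoting Bcl2l11 was also lower in AOAH than in PC (-0.32, limma, adjusted p = 0.00303). The protective Bcl2l1 was higher in AOAH than in PC (0.21, limma, adjusted p = 0.00198), so protective and death-promoting genes did not divide by direction.

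The kinase list holds Gsk3a, Gsk3b, Mtor, Akt1, Tsc1 and Tsc2, signalling genes studied in cells that lack Gimap5. None of its 6 genes passed the threshold between AOAH and vehicle, where 12.1% of all tested genes were lower and 13.1% higher, so a count of 0 in so short a list is no result about the kinases. Akt1 fell in PC against vehicle (-0.22, limma, adjusted p = 0.00287) and was higher in AOAH than in PC (0.26, limma, adjusted p = 8.91e-04). In each of these comparisons Akt1 was the only 1 of the 6 past the threshold. Over all tested genes 11.2% fell in PC and 24.3% were higher in AOAH than in PC. These counts are near or below the background, so nothing is read from them about the kinases. Gsk3b, the kinase that Gimap5 is reported to restrain, was 14.7 ± 0.877 TPM in AOAH and 13.2 ± 1.20 in vehicle (0.15, limma, adjusted p = 0.161).

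Of 12 regulators of resting lymphocytes, 6 fell in AOAH against vehicle (12.1% of all tested genes did), 6 rose in PC against vehicle (8.26%), and 8 were lower in AOAH than in PC (21.5%), with none the other way. This list too was chosen with earlier results known, so nothing is read from these counts. Klf2, which keeps T cells quiescent and in circulation, had the widest spread of the list on the log2 scale, at 11.8 ± 0.981 TPM in AOAH (SD, n = 4), 43.4 ± 5.85 in vehicle (n = 4) and 94.2 ± 4.02 in PC (n = 3). It was lower in AOAH than in PC (log2 difference -2.90, limma, adjusted p = 5.25e-07). Tcf7, a factor of naive and memory T cells, differed by -0.74 (limma, adjusted p = 2.54e-06), and Satb1, a chromatin organizer, by -0.68 (limma, adjusted p = 6.58e-06). Foxo1, which drives Klf2 and Il7r, was lower in AOAH than in vehicle (-0.34, limma, adjusted p = 8.34e-04), while PC against vehicle gave 0.05 (limma, adjusted p = 0.603).

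**Figure D4:**
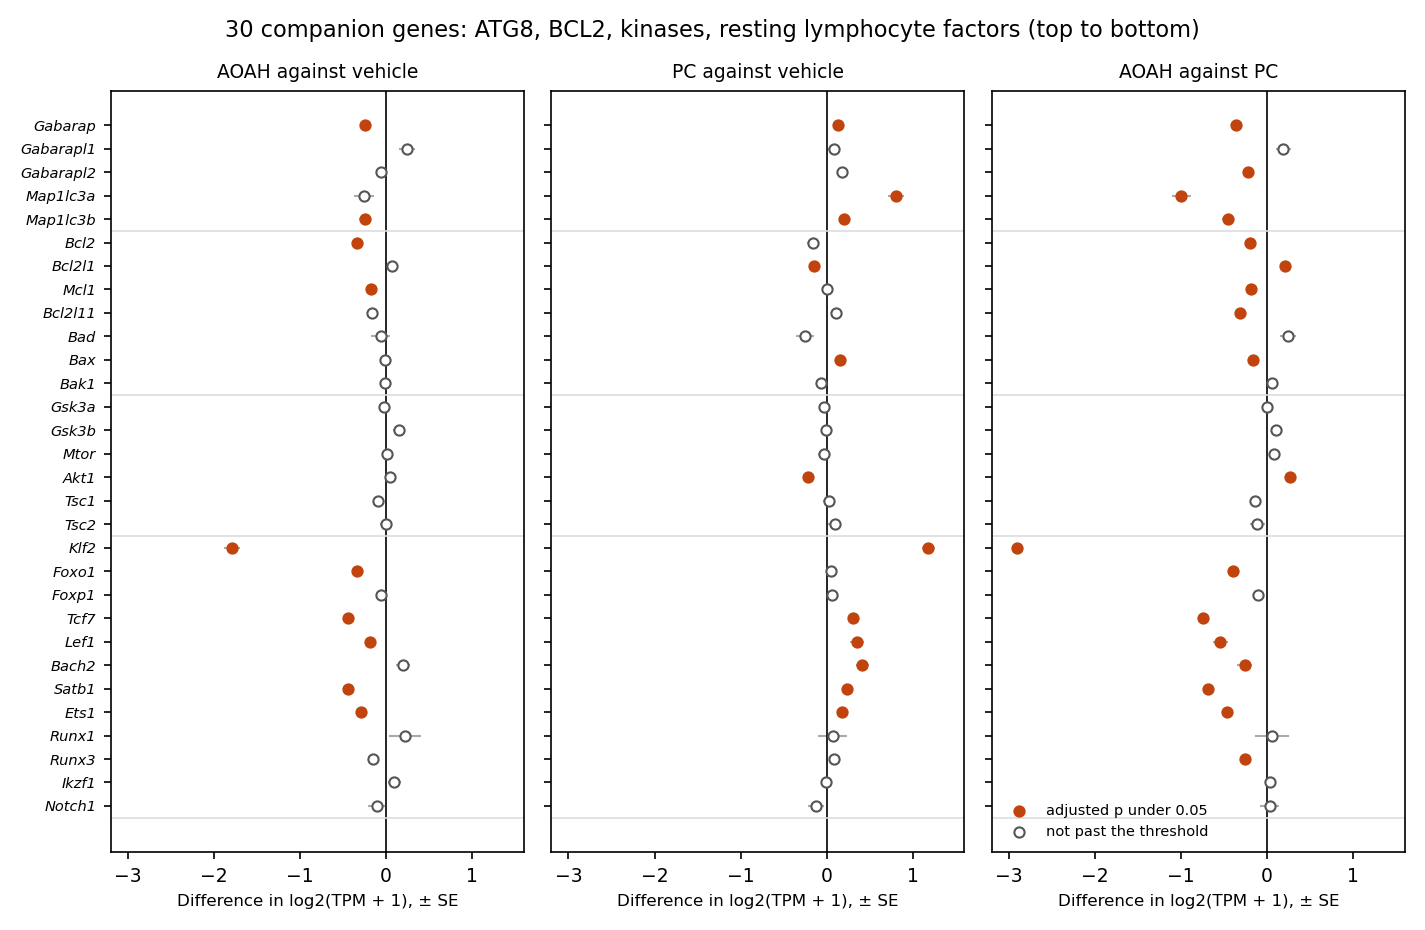
Each panel gives, for 1 comparison, the difference in log2(TPM + 1) with 1 SE of the 30 companion genes, in the order ATG8 family, BCL2 family, kinases and resting lymphocyte factors from top to bottom, with filled points for an adjusted p under 0.05. Klf2 lies farthest from 0 for AOAH against PC (-2.90), and filled points lie to the left in 10 of 10 cases for AOAH against vehicle.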

How the data were processed

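The values analysed are log2(TPM + 1), deposited by the authors as 1 table of 25562 genes and 11 libraries. Per the submitters' processing notes RSEM, DESeq2 and the mm39 build were used. Not given in the sources used here: the aligner, annotation, strand setting, tool versions and any use of molecular identifiers. Values were taken back to TPM, which came out as whole hundredths in 99.9% of cases within 1e-04. They summed to 998406 to 998655 per library, so depth cannot be read from TPM and no counting interval is given for them. The authors' deposited comparison tables hold, per the file headers, a base mean (mean normalized signal), log2 fold change, its standard error, a Wald score, p-value and adjusted p-value. A deposited table of T cell receptor clonotypes was not used.

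Genes whose mean reached 1 TPM in the compared libraries were tested with limma 3.58.1 (R 4.3.3; moderated test, two-sided, unpaired) on log2(TPM + 1), Benjamini-Hochberg threshold 0.05, after a test on simulated data. Each comparison used only its own libraries, and PC was set against vehicle 1 to 3 since vehicle 4 has no PC library of its batch number. The members and all gene lists were chosen with earlier results of these data known. Companion genes were named by rule: up to 3 per list past the threshold with the largest AOAH against PC difference, beside genes with a stated tie to a member, which were named after their values were seen. The labels give each library a batch number of unstated meaning, which was taken as a pairing in the block fit. Residuals of same-batch libraries correlated at -0.00332 on average (-0.0794 to 0.118 in 10 pairs), those of other batches at 0.00114 (30 pairs). Names, neighbour order and promoter sequence came from RefSeq on GRCm38.p6, and shared 50-base stretches from GENCODE M21 transcripts of that build. Alternatives covered pseudocount, filter, scaling (trimmed mean of M values, quantile), 1 fit over all libraries, batch as a block and each library left out.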

Additional observations from a re-analysis of the deposited data

How the results depend on the processing

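All 7 AOAH against vehicle calls and all 7 AOAH against PC calls kept their direction in every alternative run, and no result turned its direction past the threshold. The runs reuse the libraries from which the family was chosen, so this is a description and no support. No cause was tested for any change. The PC against vehicle calls were less stable. Of 4 GIMAP calls, 2 were left without a filter on low values, and 2 to 3 with 1 library left out (2 each without PC 2, PC 3, vehicle 1 or vehicle 3). The 2269 calls over all genes became 1339 without a filter and 1274 to 2083 with 1 library left out. The count of AOAH against vehicle was 2913 (2198 to 2643) and of AOAH against PC 5307 (4446 to 5047). With 1 library left out, the GIMAP count stayed at 7 (AOAH against vehicle) and was 7 to 8 (AOAH against PC). Companion calls were then 8 to 10, 8 to 11 (PC against vehicle, 12 in full) and 16 to 18. The summed GIMAP level was then 975 to 998 TPM (AOAH), 1352 to 1367 (PC) and 1282 to 1296 (vehicle). After quantile normalization it was 1379 in PC.

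With batch as a replicate block the companion calls of PC against vehicle numbered 7 in place of 12, Gimap8 lost its PC call and Gimap5 gained one for AOAH against vehicle. It changed no other GIMAP call. One alternative was chosen after seeing the data: with the TPM of the read-through model added, Gimap7 lost its AOAH against vehicle call (-0.41 to -0.18). By base mean in the authors' deposited table, that model was far smaller beside Gimap7 (19.1 against 808) than in TPM. TPM hold no depth, so the precision of low levels cannot be read from them, and 3 or 4 libraries per group limit the smaller differences. The authors' deposited table for AOAH against vehicle gives Gm28053, at a base mean of 19.1, a log2 fold change of 0.48 with a standard error of 0.57.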
